A study of Mus musculus with 16 samples.

Results

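The collagen genes form a family that encodes the alpha chains of collagen, and 42 of them were measured among 30141 genes in mouse atria after myocardial infarction. A gene was taken as a member when its row in the value table was annotated with 1 gene symbol of the form Col, a number, a and a number, and each member had a single row. The family was divided into 11 fibrillar chains, 6 basement membrane chains, 9 FACIT chains (fibril-associated collagens with interrupted triple helices) and 16 chains of other kinds. Of the 42 members, 28 passed the filter on low signal and were tested, 9 fibrillar, 5 of basement membranes, 4 FACIT and 10 others.

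Atrial tissue came from male C57BL/6 mice, wild type and aged 10 weeks. There were 16 arrays in 4 groups of 4. One group had sham surgery. The others had the left anterior descending coronary artery tied off, which infarcts the left ventricle, and were sampled 1, 3 or 7 days later. Whether the atria were also injured directly was not tested. No label used here gives the interval between sham surgery and sampling, and none ties an array to one animal beyond the group size of 4. P-values therefore measure the spread between these samples. Arrays are named by their numbers, 1 to 4 in sham, 11 to 14 on day 1, 31 to 34 on day 3 and 71 to 74 on day 7.

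Alpha chains wind in threes into a collagen triple helix, and the chain type decides what the helix builds. Fibrillar collagens make the ropes that give heart tissue its tensile strength, basement membrane collagens make the sheet under vessels and around muscle cells, and FACIT collagens sit on the surface of fibrils. In the heart fibroblasts are the main makers of fibrillar collagen, and the scar that replaces dead muscle is built largely from it. In whole tissue, more or fewer cells of a type and more or less RNA per cell cannot be told apart.

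Values are log2 signals as deposited, and a difference is a log2 difference between group means, given with the standard error (SE) of a linear model fitted with limma to all 18419 tested genes. A gene was called at a Benjamini-Hochberg adjusted p under 0.05. The level of background was set by the negative control rows of each array, whose median averaged 4.49 in sham and stood 0.26 higher on day 1, 0.17 higher on day 3 and 0.03 higher on day 7. A gene at or below that median on all 4 arrays of a group is described as not above background there. Signals of different genes are not compared, since each row has its own response.

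Array 31 of day 3 stood apart from the other arrays. Its control rows told positive from negative with a separation of 0.743, where 1 would be complete, and arrays 32 to 34 had 0.816 to 0.825. Array 13 of day 1 had 0.755, and the remaining arrays lay between 0.793 and 0.823. The mean signal of 7 neutrophil markers was 11.03 there, while arrays 32 to 34 had 6.46 to 6.66 and day 1 had 10.52 to 12.09. Its mean over 9 fibroblast markers was 8.79, and arrays 32 to 34 had 9.96 to 10.11. Among the 14 collagen genes with a day 7 difference of at least 1, array 31 was the lowest of the day 3 arrays for all 14, by 0.70 to 2.97 below the mean of the other 3 arrays. Day 3 values are given with and without it where that changes a call or moves a value by over 1.5 times.

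The labelled tissue was checked against defining markers. Of 6 atrial muscle markers, Nppa, the gene of atrial natriuretic peptide, lay at the top of the scale in sham (19.93), and Myl7 and Sln, genes of an atrial myosin light chain and of sarcolipin, stood at 17.97 ± 0.28 and 17.97 ± 0.19 (SD, n = 4). Bmp10, a gene of the right atrium, was not above background on any sham, day 1 or day 3 array. Ventricular markers were present as well. In sham, Myl3 stood at 16.15 ± 0.11, Myh7 at 13.55 ± 0.48 and Myl2 at 9.79 ± 0.06. Hey2 and Irx4 stood at 6.35 ± 0.09 and 5.41 ± 0.19.

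In the fit over all arrays few members of the collagen family were called on day 1. The family was mostly higher on day 3 and was higher still on day 7. Of 28 tested members, 3 were higher and 4 lower than sham on day 1, which is 10.7% and 14.3% of them, where 24.9% and 22.2% of all tested genes were called higher and lower. On day 3, 15 members were higher and 3 lower (53.6% and 10.7%), against 23.5% and 20.2% of all tested genes. On day 7, 19 members were higher (67.9%), against 14.9% of all tested genes. Limma called 0 members lower on day 7, where 9.92% of all tested genes were lower (15.9% without array 31) and 1 member, Col6a6, was lower at an unadjusted p under 0.05. A moderated F test over the 3 days called 22 of the 28 members, against 52.3% of all tested genes. On day 7 the 4 arrays lay wholly above the sham arrays in 19 members, against 19.9% of all tested genes. The median difference of the tested members from sham was 0.01, 0.36 and 1.15 on days 1, 3 and 7, where the median of all tested genes was 0.06, 0.08 and −0.01. Scaling changes the all-gene median and the day 1 split, as given with the alternatives. Array weights or a fit of 2 groups only raised the day 1 counts, for members and for all tested genes alike. Of the members called, Col11a1 was above background on day 7 only and owed its test to that day. Col4a3, Col4a4 and Col6a6, called lower on days 1 and 3, were not above background on those days.

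The rise ran through the week. Between day 1 and day 3, 13 members rose, against 5.95% of all tested genes, and between day 3 and day 7 another count of 13 rose, against 4.06%. From day 1 to day 7, 21 members rose, against 13.7% of all tested genes. Limma called 0 members lower in each of these 3 comparisons, and 0 at an unadjusted p under 0.05, where 2.16%, 8.57% and 12.7% of all tested genes were lower. Without array 31 the shares of all tested genes from day 1 to day 3 were 18.8% higher and 16.8% lower, and from day 1 to day 7 21.5% and 28.7%, while 15 and 23 members were higher and 0 lower. Of the 21, Col4a3 and Col8a2 were not above background on either day, and Col4a3 is also among those called from day 3 to day 7. Of the 22 members called against sham on at least 1 day, 19 had their highest mean on day 7. In a fit without array 31 the day 1 count of higher members was 6 (35.6% of all tested genes were then higher), and the day 7 to day 3 count was 7 without array 71 and 6 without array 74, both day 7 arrays.

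**Figure D1:**
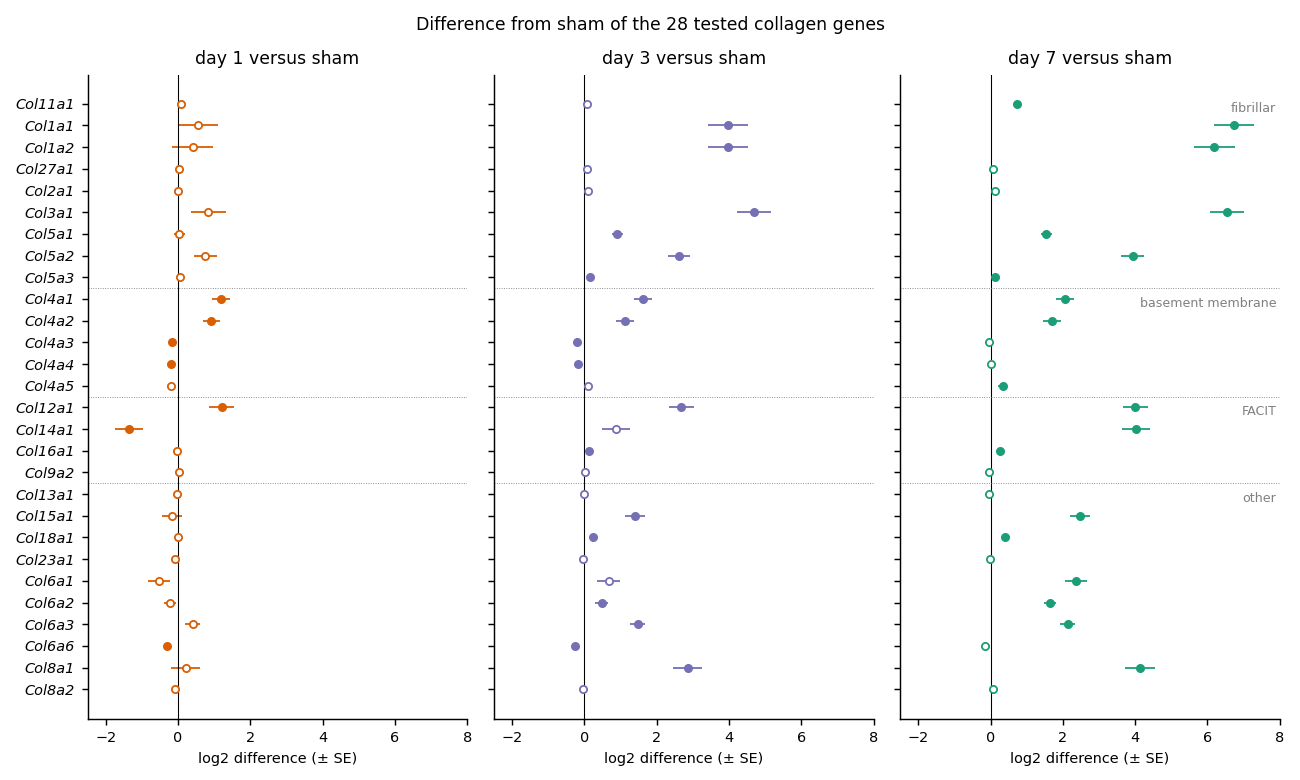
Difference from sham (log2, horizontal axis) of the 28 tested collagen genes on days 1, 3 and 7, with bars of ± 1 SE of the fit over 4 arrays a group. Filled points are called at an adjusted p under 0.05 and open points are not. The day 7 differences of Col1a1, Col3a1 and Col1a2 lie at 6.73, 6.54 and 6.19, and most genes of low signal lie close to 0.

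The fibrillar class carried the greatest differences. Limma called 0 of its 9 tested members in either direction on day 1, with 1 higher at an unadjusted p under 0.05 (Col5a2). It called 6 higher on day 3 and 7 higher on day 7, with class medians of 0.07, 0.91 and 1.55 on the 3 days. That is 66.7% and 77.8% of the class on days 3 and 7, where 23.5% and 14.9% of all tested genes were higher. The 7 include Col11a1, which owed its test to its day 7 arrays. Type I and type III collagen, the main fibril formers of the heart, moved most.

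Col1a1 and Col1a2 encode the alpha 1 and alpha 2 chains of type I collagen, the stiff fibre of scar and tendon. Col1a1 read 7.19, 6.97, 6.84 and 6.67 in sham and 7.51, 7.43, 7.14 and 7.78 on day 1. It reached 8.73, 11.60, 11.72 and 11.55 on day 3 and 13.81, 13.54, 12.65 and 14.60 on day 7. Sham and day 1 overlapped, and from there each later day lay wholly above the earlier ones. The differences from sham were 0.54 ± 0.56 (SE, adjusted p 0.426), 3.98 ± 0.56 (6.49e-05) and 6.73 ± 0.56 (3.5e-06).

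Col1a2 followed the same course. Its 4 sham arrays read 7.57, 7.47, 7.47 and 7.44, and its day 1 arrays 7.94, 7.95, 7.24 and 8.43. The day 3 arrays read 9.23, 12.26, 12.26 and 12.09, and the day 7 arrays 13.81, 13.68, 12.77 and 14.46. Array 31 held the low day 3 value of both type I genes, and array 73 the low day 7 value. Col1a2 differed from sham by 0.40 ± 0.56 (adjusted p 0.568), 3.97 ± 0.56 (7.4e-05) and 6.19 ± 0.56 (6.84e-06).

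Col3a1 encodes type III collagen, the finer fibre that is laid down with type I in healing tissue. Its signal was 8.86, 8.42, 8.06 and 8.08 in sham, and 9.02, 9.10, 8.66 and 10.00 on day 1. On day 3 it was 11.33, 13.74, 13.69 and 13.42, and on day 7 it was 14.88, 14.93, 14.29 and 15.48. No infarct array from day 3 on overlapped an earlier group. The day 1 difference of 0.84 ± 0.47 was not called (adjusted p 0.15), although it was in a fit without array 31 (adjusted p 0.0217). On days 3 and 7 the differences were 4.69 ± 0.47 (4.79e-06) and 6.54 ± 0.47 (1.45e-06).

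RefSeq promoter windows of the assembly GRCm38.p6 were at hand for 33 of the 42 members, in 36 windows. The 250 bases before the annotated start are shown for Col1a2 and Col3a1, since they encode main fibril-forming chains and had a window. The windows differ in composition, with 62.0% and 35.2% G and C. Capitals mark a CCAAT box (CCAAT), a GC box (GGGCGG) or a TATA box (TATAAA) on either strand, and matches of different motifs do not overlap in the windows shown. The Col1a2 window is chr6:4505368-4505617 and the Col3a1 window chr1:45311288-45311537, both on the plus strand.
Col1a2: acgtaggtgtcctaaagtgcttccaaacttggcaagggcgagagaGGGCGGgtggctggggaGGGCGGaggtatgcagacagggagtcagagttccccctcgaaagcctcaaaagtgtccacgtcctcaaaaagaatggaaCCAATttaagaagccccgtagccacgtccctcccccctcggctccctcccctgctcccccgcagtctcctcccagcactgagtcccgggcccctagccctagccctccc
Col3a1: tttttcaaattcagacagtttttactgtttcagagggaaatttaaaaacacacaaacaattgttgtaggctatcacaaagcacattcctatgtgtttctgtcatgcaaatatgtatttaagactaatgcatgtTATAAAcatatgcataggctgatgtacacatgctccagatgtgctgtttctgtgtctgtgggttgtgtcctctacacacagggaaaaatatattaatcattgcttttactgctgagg

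Col1a2 held 1 CCAAT box and 2 GC boxes, and Col3a1 held 1 TATA box. Over the 36 family windows 30.6% held a CCAAT box, 55.6% a GC box and 13.9% a TATA box. Over all 32851 windows of this length the shares were 33.8%, 32.7% and 12.4%. The median content of G and C over all windows was 52.4%, and the motif shares were not adjusted for composition. These are matches of letters and not binding sites. Col3a1 and Col5a2 are neighbours on chromosome 1, with 0 protein-coding genes between them in that assembly.

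Type V collagen nucleates fibrils and sets their width, and Col5a1 and Col5a2 encode its principal chains. Col5a2 stood at 5.86, 5.84, 5.74 and 5.76 in sham and at 6.61, 6.26, 6.59 and 6.76 on day 1. Its day 3 values were 7.28, 8.76, 8.81 and 8.81 and its day 7 values 9.70, 9.72, 9.14 and 10.35. All 4 groups were separate. The day 1 difference of 0.76 ± 0.31 had an adjusted p of 0.0564, and it was called in 6 alternatives, among them the fits without array 31, 73 or 74. The day 3 and day 7 differences were 2.62 ± 0.31 (1.59e-05) and 3.93 ± 0.31 (2.55e-06).

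Col5a1 lay nearer background. It read 4.93, 4.86, 4.79 and 4.74 in sham and 4.88, 4.83, 4.84 and 4.90 on day 1, where array 13 was not above background. It then read 5.22, 5.93, 5.96 and 5.85 on day 3 and 6.43, 6.29, 6.02 and 6.75 on day 7. Sham and day 1 could not be separated (0.04 ± 0.16, adjusted p 0.861), and the later days lay above both. The differences were 0.91 ± 0.16 on day 3 (adjusted p 0.000388) and 1.55 ± 0.16 on day 7 (1.71e-05).

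The other fibrillar chains were low throughout. Col11a1, a chain of the type XI collagen of cartilage that also mixes with type V chains, read 4.22, 4.14, 4.15 and 4.08 in sham, 4.18, 4.14, 4.32 and 4.22 on day 1, and 4.30, 4.17, 4.18 and 4.21 on day 3. None of these 12 values was above background, and the day 7 values of 4.77, 4.80, 4.84 and 5.16 all were. The day 7 difference was therefore at least 0.40 (fitted 0.75 ± 0.08, adjusted p 1.81e-05). Col11a1 passed the filter on low signal only through its day 7 arrays, so this p-value is not independent of that choice.

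Col5a3, a further chain of type V collagen, read 4.71, 4.65, 4.62 and 4.56 in sham and 4.68, 4.67, 4.73 and 4.66 on day 1. It read 4.78, 4.81, 4.81 and 4.80 on day 3 and 4.78, 4.74, 4.73 and 4.80 on day 7. The differences of 0.16 ± 0.04 on day 3 (adjusted p 0.00648) and 0.12 ± 0.04 on day 7 (0.0492) were called. The day 3 difference was no greater than the rise of the negative controls on that day, 0.17, and the day 7 call was lost in 19 of 26 alternatives, among them the fits without any 1 day 7 array or without sham array 2, 3 or 4. With each array centred on its negative controls the day 3 difference was −0.0076. Col2a1, the type II collagen of cartilage, and Col27a1 were not called against sham on any day, with differences of 0.01 to 0.14. Col11a2 and Col24a1 did not pass the filter.

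**Figure D2:**
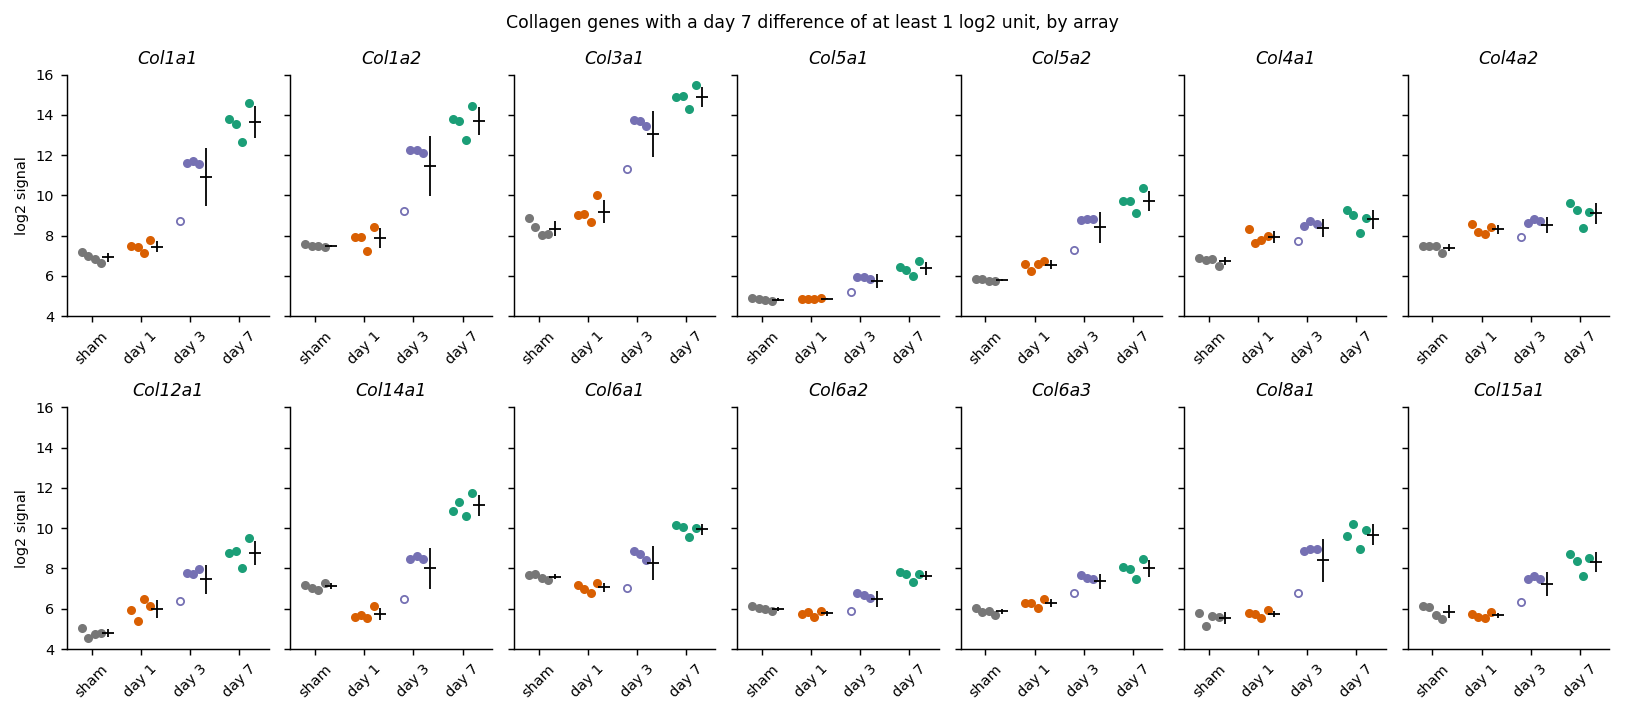
Log2 signal (vertical axis) of the 14 collagen genes with a day 7 difference of at least 1, by group, with a point for each array and a cross for the mean ± SD of 4 arrays. The open point is day 3 array 31. It lies below the other day 3 arrays in all 14 panels, and day 7 holds the highest mean in each.

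In the basement membrane class 2 of 5 tested members were higher and 2 lower on days 1 and 3, and 3 were higher on day 7, against the all-gene shares given above. It divided by chain. Col4a1 and Col4a2, whose chains form the type IV collagen found in nearly all basement membranes, rose on all 3 days. Col4a3 and Col4a4, chains of a network known from kidney and lung, stayed at or near background.

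Col4a1 read 6.90, 6.79, 6.82 and 6.49 in sham and 8.33, 7.65, 7.77 and 7.99 on day 1. It read 7.75, 8.46, 8.72 and 8.60 on day 3 and 9.25, 9.02, 8.13 and 8.86 on day 7. Every infarct array lay above every sham array, while the 3 infarct days overlapped one another. The differences from sham were 1.18 ± 0.25 (adjusted p 0.0018), 1.63 ± 0.25 (0.000129) and 2.07 ± 0.25 (5.54e-05). Day 7 exceeded day 1 by 0.88 ± 0.25 (adjusted p 0.0192), and the steps from day 1 to day 3 and from day 3 to day 7 were not called.

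Col4a2 moved with it. Sham arrays read 7.47, 7.49, 7.50 and 7.16, and day 1 arrays 8.59, 8.18, 8.10 and 8.42. Day 3 arrays read 7.95, 8.64, 8.82 and 8.72, and day 7 arrays 9.61, 9.28, 8.37 and 9.15. Again no infarct array reached down to sham, and the infarct days overlapped. The differences were 0.92 ± 0.24 (adjusted p 0.00738), 1.13 ± 0.24 (0.00177) and 1.70 ± 0.24 (0.0002). The day 1 call of Col4a2 was lost when arrays were quantile-normalised (0.68) or centred on their negative controls (0.66). The 2 genes are neighbours on chromosome 8, and their annotated starts in GRCm38.p6 lie 21 bases apart on opposite strands.

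The further type IV chains lay near background. Col4a5, whose gene lies beside Col4a6 on the X chromosome, read 5.15, 5.09, 5.05 and 5.06 in sham and 4.93, 5.02, 4.72 and 4.91 on day 1. It read 4.76, 5.40, 5.31 and 5.28 on day 3 and 5.43, 5.39, 5.56 and 5.31 on day 7. Only the day 7 difference of 0.33 ± 0.12 was called (adjusted p 0.0491), a call that 18 of 26 alternatives lost, among them the fits without any 1 sham or day 7 array. Without array 31 the day 1 and day 3 differences, −0.19 and 0.24, were called as well, though the day 3 difference of 0.10 over all arrays turned to −0.05 under quantile normalisation.

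Col4a3 read 4.34, 4.30, 4.25 and 4.27 in sham and 4.09, 4.07, 4.17 and 4.10 on day 1. It read 4.14, 4.12, 4.07 and 4.04 on day 3 and 4.26, 4.16, 4.32 and 4.24 on day 7, with 0 of 16 arrays above background. Its called differences of −0.18 ± 0.05 on day 1 (adjusted p 0.00641) and −0.20 ± 0.05 on day 3 (0.00341) therefore carry no readable size. Col4a4 read 4.55, 4.46, 4.46 and 4.42 in sham, 4.28, 4.20, 4.34 and 4.33 on day 1, 4.32, 4.38, 4.29 and 4.24 on day 3, and 4.53, 4.37, 4.63 and 4.38 on day 7. Col4a4 was above background on 1 sham array and 2 day 7 arrays, and on no day 1 or day 3 array. Its differences of −0.18 ± 0.06 (adjusted p 0.0283) and −0.17 ± 0.06 (0.0447) likewise have no size below background. The day 1 call was lost in 5 alternatives and the day 3 call in 13, including the fit without array 31 (adjusted p 0.0594). Col4a6 did not pass the filter.

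Among the FACIT chains, 2 genes took opposite paths on day 1 and had near-equal differences from sham on day 7. Col12a1 and Col14a1 encode type XII and type XIV collagen, which bind the surface of type I fibrils. Col12a1 was higher than sham on all 3 days. Col14a1 was lower on day 1 and higher on day 7.

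Col12a1 read 5.03, 4.55, 4.73 and 4.80 in sham and 5.96, 5.37, 6.47 and 6.15 on day 1. It read 6.40, 7.75, 7.73 and 7.99 on day 3 and 8.76, 8.86, 8.02 and 9.49 on day 7. Each infarct day lay above sham, and only array 31 kept day 3 from standing clear of day 1. In sham the mean of 4.78 was close to the background of 4.49, though all 4 arrays were above it. The differences were 1.21 ± 0.35 (adjusted p 0.013), 2.69 ± 0.35 (3.69e-05) and 4.00 ± 0.35 (5.11e-06).

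Col14a1 read 7.20, 7.05, 6.93 and 7.28 in sham and 5.60, 5.69, 5.54 and 6.16 on day 1, with no overlap. It read 6.49, 8.45, 8.62 and 8.45 on day 3 and 10.84, 11.29, 10.61 and 11.77 on day 7. Array 31 fell below sham where the other day 3 arrays lay above it. Col14a1 fell by 1.37 ± 0.39 on day 1 (adjusted p 0.0115) and rose by 4.01 ± 0.39 on day 7 (1.07e-05). The day 3 difference of 0.89 ± 0.39 was not called (adjusted p 0.0801), but it was 1.39 without array 31 (adjusted p 0.0002). Tested directly, day 7 exceeded day 1 by 5.38 ± 0.39 (adjusted p 7.51e-07).

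Col16a1, which encodes type XVI collagen, stayed near background. It read 4.65, 4.57, 4.60 and 4.54 in sham, 4.52, 4.52, 4.63 and 4.57 on day 1, 4.78, 4.70, 4.67 and 4.67 on day 3, and 4.84, 4.87, 4.84 and 4.90 on day 7. Day 7 was 0.27 ± 0.04 above sham (adjusted p 0.000575), with no overlap. The day 3 difference of 0.12 ± 0.04 (adjusted p 0.0479) was lost in 18 alternatives, among them the fit without array 31. It turned to −0.000899, −0.015 and −0.055 when arrays were quantile-normalised or centred on the tested genes or the negative controls. Col9a2, of the type IX collagen of cartilage, was not above background on any array and was not called. Col9a1, Col9a3, Col19a1, Col20a1 and Col22a1 did not pass the filter.

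The remaining 16 members are chains of beaded filaments, short-chain networks, multiplexins and membrane-spanning collagens, besides Col26a1 and Col28a1. Of the 10 tested, 5 were higher and 1 lower on day 3 (23.5% and 20.2% of all tested genes) and 6 were higher on day 7 (14.9% of all tested genes). On day 1 limma called 1 lower and 0 higher, with 0 higher at an unadjusted p under 0.05.

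Type VI collagen forms beaded filaments next to cells, from a chain each of Col6a1, Col6a2 and Col6a3. Col6a1 read 7.67, 7.71, 7.53 and 7.45 in sham and 7.19, 6.98, 6.79 and 7.30 on day 1. It read 7.03, 8.87, 8.72 and 8.41 on day 3 and 10.17, 10.07, 9.56 and 10.03 on day 7. All day 1 arrays lay under all sham arrays, and array 31 lay there too. The day 1 difference of −0.52 ± 0.31 (adjusted p 0.168) and the day 3 difference of 0.67 ± 0.31 (0.0947) were not called. Without array 31 both were, at −0.52 (adjusted p 0.00778) and 1.08 (0.000102). The day 7 difference was 2.37 ± 0.31 (9.91e-05).

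Col6a2 read 6.11, 6.05, 5.97 and 5.89 in sham and 5.74, 5.85, 5.62 and 5.89 on day 1. It read 5.88, 6.80, 6.70 and 6.54 on day 3 and 7.84, 7.72, 7.31 and 7.72 on day 7. Day 7 alone stood clear of sham. The day 1 difference of −0.23 ± 0.17 was not called, the day 3 difference of 0.48 ± 0.17 was called (adjusted p 0.0335) but lost in 11 alternatives, and the day 7 difference was 1.64 ± 0.17 (1.71e-05). The 11 include the fits without sham array 2, 3 or 4 and without array 32, 33 or 34.

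Col6a3 read 6.05, 5.86, 5.87 and 5.71 in sham and 6.30, 6.27, 6.04 and 6.50 on day 1. It read 6.78, 7.65, 7.54 and 7.46 on day 3 and 8.08, 7.97, 7.48 and 8.49 on day 7. Unlike the other type VI chains it did not lie below sham on day 1, where array 13 alone overlapped the sham range. The differences were 0.40 ± 0.21 (adjusted p 0.116), 1.48 ± 0.21 (6.24e-05) and 2.13 ± 0.21 (1.07e-05). Without array 31 the day 1 difference was called (adjusted p 0.046).

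Col6a6, a further type VI chain, went the other way at a low level. It read 4.79, 4.74, 4.86 and 4.76 in sham, 4.43, 4.46, 4.59 and 4.46 on day 1, 4.59, 4.60, 4.49 and 4.49 on day 3, and 4.64, 4.58, 4.75 and 4.56 on day 7. Day 1 and day 3 were not above background. The called differences of −0.30 ± 0.06 (adjusted p 0.000723) and −0.25 ± 0.06 (0.00251) amount to a fall of at least 0.04 and 0.13 once the background of those days is taken as the bound. The day 7 difference of −0.15 ± 0.06 had an adjusted p of 0.0609, and of 0.0457 without array 31.

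Col8a1 encodes a chain of type VIII collagen, a short-chain network collagen of vessel walls. It read 5.82, 5.13, 5.62 and 5.60 in sham and 5.81, 5.74, 5.53 and 5.92 on day 1. It read 6.79, 8.86, 8.97 and 8.98 on day 3 and 9.61, 10.20, 8.99 and 9.90 on day 7. Sham and day 1 lay together (0.21 ± 0.41, adjusted p 0.684), and the later days stood far above. The differences were 2.86 ± 0.41 on day 3 (adjusted p 7.58e-05) and 4.13 ± 0.41 on day 7 (1.24e-05), and the step between those days was not called (1.27 ± 0.41, adjusted p 0.0557). Its partner Col8a2 was not above background on any array. The promoter window of Col8a1, chr16:57754738-57754987 on the minus strand of GRCm38.p6, is shown because Col8a1 had the largest day 7 difference outside the fibrillar class, and it held 4 GC boxes, in capitals.
Col8a1: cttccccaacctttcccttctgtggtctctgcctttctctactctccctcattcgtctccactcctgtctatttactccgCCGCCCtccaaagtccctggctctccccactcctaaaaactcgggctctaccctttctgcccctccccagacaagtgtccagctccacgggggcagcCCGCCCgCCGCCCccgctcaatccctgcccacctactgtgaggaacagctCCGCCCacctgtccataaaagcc

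Col15a1 and Col18a1 encode the multiplexins, collagens with sugar side chains that lie in or next to basement membranes. Col15a1 read 6.14, 6.09, 5.67 and 5.48 in sham and 5.76, 5.60, 5.56 and 5.82 on day 1. It read 6.35, 7.49, 7.62 and 7.50 on day 3 and 8.74, 8.38, 7.63 and 8.54 on day 7. Day 1 lay within the sham range (−0.16 ± 0.28, adjusted p 0.654). Col15a1 rose by 1.39 ± 0.28 on day 3 (adjusted p 0.00109) and by 2.48 ± 0.28 on day 7 (3.4e-05).

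Col18a1, the source gene of the fragment endostatin, moved little. It read 4.88, 4.82, 4.73 and 4.67 in sham and 4.76, 4.73, 4.77 and 4.82 on day 1. It read 4.92, 5.07, 4.98 and 5.10 on day 3 and 5.18, 5.06, 5.22 and 5.28 on day 7. The differences of 0.24 ± 0.06 on day 3 (adjusted p 0.00595) and 0.41 ± 0.06 on day 7 (0.000308) were called, without overlap. The day 3 call was lost under quantile normalisation and both centrings, which gave 0.07 to 0.11. The transmembrane collagens Col13a1 and Col23a1 were not called, with differences of −0.08 to 0.00. Col10a1, Col17a1, Col25a1, Col26a1, Col28a1 and Col6a5 did not pass the filter, and none of the 14 members left out by it was above background on any array.

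The 14 members with a day 7 difference of at least 1 differed in how much of that difference was present earlier. These shares are a description of genes picked by their day 7 value, and differences in timing between genes were not tested. On day 1, Col4a1 and Col4a2 were already at 57.3% and 54.1% of their day 7 difference and Col12a1 at 30.2%. Col5a2, Col6a3 and Col3a1 stood at 19.3%, 19.0% and 12.8%. Col1a1, Col1a2, Col8a1 and Col5a1 stood between 2.36% and 8.08%, a group of 3 fibrillar genes and 1 network gene. Col15a1, Col6a2, Col6a1 and Col14a1 were below sham, at −6.39%, −14.0%, −22.2% and −34.0%. On day 3, 11 of the 14 stood between 56.2% and 79.1%. The late group was Col6a2, Col6a1 and Col14a1 at 29.0%, 28.3% and 22.1%, which became 41.1%, 45.6% and 34.7% without array 31.

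**Figure D3:**
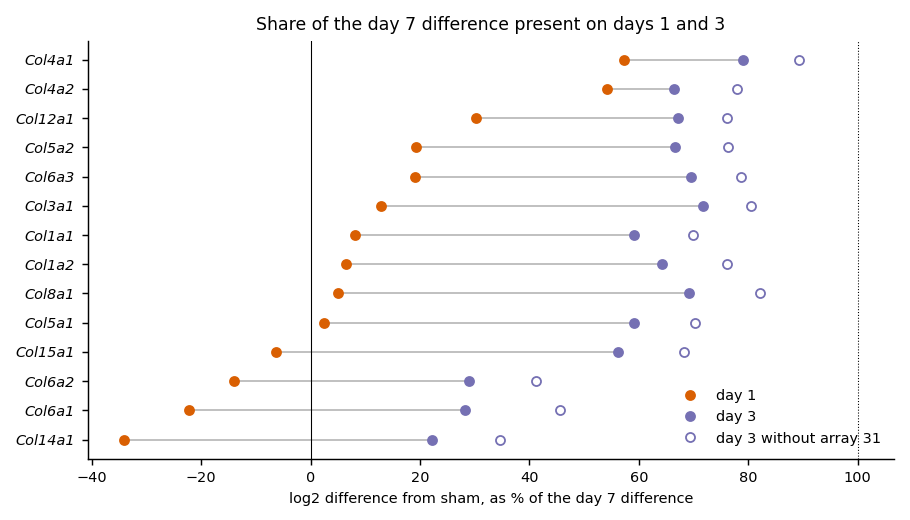
Difference from sham on day 1 and day 3 as a percentage of the day 7 difference (horizontal axis) for 14 collagen genes, ordered by the day 1 value. Open points leave out array 31. Col4a1 and Col4a2 lead at 57.3% and 54.1% on day 1, and Col14a1 lies at −34.0%.

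Chains of one collagen type, and the related pairs Col1a1 with Col3a1 and Col15a1 with Col18a1, were then compared within each array, as the log2 signal of one gene minus that of its partner. The level of such a difference has no meaning between genes, but its change against sham shows whether the partners moved by different amounts. For 9 pairs on 3 days this gave 27 exact two-sided permutation tests. The smallest p that 4 arrays against 4 allow is 0.0286, which became an adjusted p of 0.0482, and 16 tests reached it. These 16 share the same p, so the adjustment passes or fails them together. All of these calls were lost whichever 1 sham array was left out, which does not show that each pair depends on each array. In 6 of the 27 tests 1 gene was not above background on any array (Col8a2 or Col4a3), so neither a size nor a likeness can be read from them, and of the other 21 tests 14 reached the smallest p.

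The type I, III and IV pairs were these. Col1a1 gained 0.54 on Col1a2 by day 7, from −0.57 ± 0.17 in sham to −0.03 ± 0.13 (SD, n = 4). It had not on day 3, when the difference was −0.56 ± 0.07 (exact p 1). Against Col3a1, Col1a1 lagged by 0.71 on day 3, from −1.43 ± 0.18 to −2.15 ± 0.32, and on day 7 the change was 0.19 (exact p 0.343). Col4a1 gained 0.27, 0.51 and 0.37 on Col4a2 over the 3 days, from −0.66 ± 0.06 in sham, and each of the 12 infarct arrays lay above the 4 sham arrays. All these changes except the 2 with a stated p were at the smallest p.

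Relative to its type VI partners Col6a1 was lower on day 1. Against Col6a3, Col6a1 lost 0.93 on day 1 and 0.81 on day 3, from 1.72 ± 0.10 to 0.79 ± 0.08 and 0.90 ± 0.45. On day 7 it stood at 1.95 ± 0.27 (exact p 0.143). Against Col6a2, its neighbour on chromosome 10, Col6a1 lost 0.29 on day 1 and gained 0.72 on day 7, from 1.58 ± 0.05 to 1.29 ± 0.16 and 2.31 ± 0.04. Col5a1 lagged behind Col5a2 by 0.72, 1.70 and 2.38 on the 3 days, where Col5a1 was itself close to background in sham. Col15a1 gained 1.15 and 2.06 on Col18a1 on days 3 and 7, where Col18a1 was itself close to background, at 4.77 in sham.

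**Figure D4:**
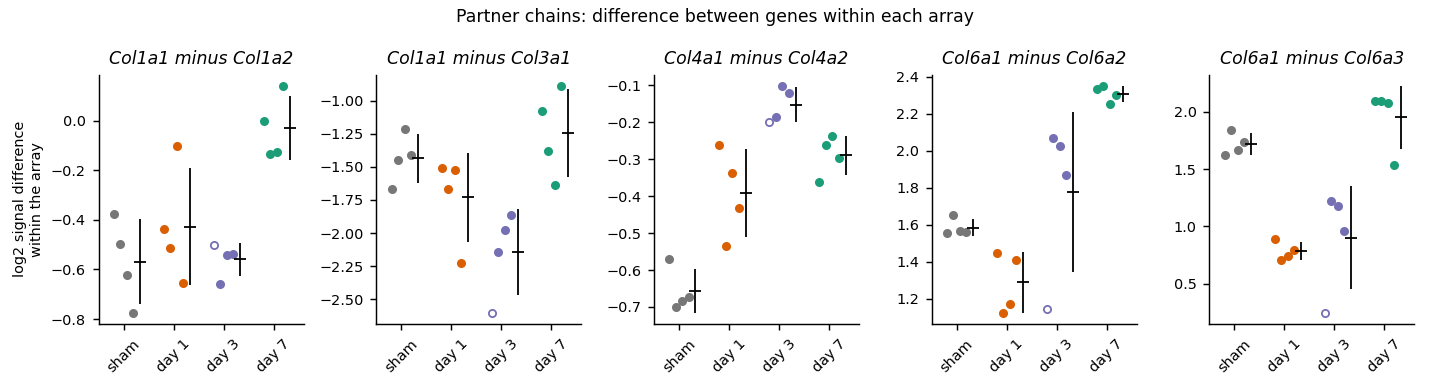
Log2 signal of one chain gene minus that of its partner within each array (vertical axis, a separate scale in each panel), by group, with the mean ± SD of 4 arrays. The open point is array 31. Col1a1 minus Col1a2 is near −0.57 in sham and −0.03 on day 7, and Col6a1 minus Col6a3 falls from 1.72 to 0.79 on day 1 and stands at 1.95 on day 7.

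Lists of genes that work on or with collagen are read against the shares of all tested genes, 24.9% higher and 22.2% lower on day 1, 23.5% and 20.2% on day 3, and 14.9% and 9.92% on day 7. Of the genes that fold, cut and cross-link collagen, more were higher on days 3 and 7 than on day 1. Of 27 tested genes of collagen synthesis and processing, 8 were higher and 4 lower on day 1. On day 3, 17 were higher and 2 lower (19 and 1 without array 31), and on day 7, 18 were higher. The medians were 0.21, 0.69 and 0.59. The 29.6% higher and 14.8% lower on day 1 are near the shares of all genes, and without array 31 the day 1 counts were 11 and 6. Limma called 0 lower on day 7, and 0 at an unadjusted p under 0.05. Lox, the lysyl oxidase that starts cross-linking, rose by 3.25 ± 0.49, 5.23 ± 0.49 and 6.15 ± 0.49, from 6.52 ± 0.27 in sham to 12.68 ± 0.82 on day 7. P4hb, a subunit of the prolyl hydroxylase that stabilises the helix, led with it on days 1 and 3, at 1.79 ± 0.12 and 2.48 ± 0.12. Loxl1, a related oxidase, led with it on day 7, at 3.35 ± 0.30. Lox was called on day 1, when Col1a1 and Col1a2 were not, a contrast between genes that was not tested.

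Of 8 tested receptors for collagen, 4 were higher on day 1, 4 on day 3 (5 without array 31) and 6 on day 7, with medians of 0.23, 0.54 and 0.73. Lair1, an inhibitory collagen receptor of immune cells, rose by 1.30 ± 0.29, 2.41 ± 0.29 and 2.52 ± 0.29. Itgb1, the common beta chain of collagen-binding integrins, rose by 1.03 ± 0.11 on day 1, a call that quantile normalisation took away (0.46). Mrc2, an uptake receptor for collagen, rose by 1.03 ± 0.21 on day 3 and by 1.69 ± 0.21 on day 7.

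Of 8 tested collagen-degrading enzymes, 3 were higher and 1 lower on day 1 (3 and 3 without array 31), 4 higher on day 3 (7 without array 31) and 5 higher on day 7, with medians of −0.07, 0.59 and 0.88. Mmp8, the neutrophil collagenase, was not above background in sham or on day 7 and rose by at least 4.25 on day 1, to 8.74 ± 0.51 (adjusted p 7.71e-07). Mmp9, a gelatinase, rose by at least 1.97 on day 1. On day 3 the bound was 1.67 over all 4 arrays and 0.66 without array 31, so its size leans on that array. The day 3 call held without array 31 (limma adjusted p 0.00205) and was lost from 2 groups only. Mmp14, a membrane-bound collagenase, led on days 3 and 7 at 3.02 ± 0.30 and 3.72 ± 0.30. Mmp2, the gelatinase that Mmp14 activates, was 3.23 ± 0.31 above sham on day 7.

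Genes of fibril organisers were mostly lower first and higher later. Of 15 tested, 1 was higher (2 without array 31) and 8 lower on day 1. On day 3, 4 were higher and 4 lower (5 and 3 without array 31), and on day 7, 10 higher and 1 lower. The medians were −0.93, 0.05 and 1.92. The gene that rose on day 1 was Fn1, the fibronectin on which collagen fibrils assemble, at 4.91 ± 0.44, then 6.09 ± 0.44 and 7.18 ± 0.44. Podn, a small leucine-rich proteoglycan, fell by 2.77 ± 0.27 on day 1. Postn, the matricellular protein periostin, rose by 4.33 ± 0.67 on day 3 and by 6.87 ± 0.67 on day 7.

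Cell type markers moved over the same days, and their part in the collagen differences was not tested. Of 9 fibroblast markers, 6 were lower on day 1, 1 was higher and 2 lower on day 3 (3 and 2 without array 31), and 7 were higher and 1 lower on day 7. Their mean signal ran from 9.77 to 9.98 in sham, 8.49 to 9.29 on day 1, 8.79 to 10.11 on day 3 and 11.09 to 11.27 on day 7. On day 1 limma called 0 higher, and 0 at an unadjusted p under 0.05. Dcn, Dpt and Lum belong both to these markers and to the fibril organisers. Dpt, the gene of dermatopontin, fell by 2.24 ± 0.49 and Gsn, the gene of gelsolin, by 1.50 ± 0.27 on day 1, and Gsn and Pi16 were the 2 lower on day 3, by 1.99 ± 0.27 and 0.76 ± 0.12. Mfap5 and Lum rose by 3.21 ± 0.63 and 2.76 ± 0.32 on day 7.

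Of 5 myofibroblast markers 2 were higher on day 3 (4 without array 31) and 4 on day 7, led by Postn and by Cthrc1, which rose by 1.98 ± 0.31 and 3.71 ± 0.31. The mean signal of the 6 measured myofibroblast markers, with the untested Lrrc15 included, ran from 7.51 to 8.15 in sham and from 10.20 to 10.74 on day 7. The marker counts too are read against the shares of all tested genes, which on day 1 were 24.9% higher and 22.2% lower. On day 1, when Col4a1 and Col4a2 were higher, 3 of 7 endothelial markers were lower and 1 higher, and 3 of 8 smooth muscle and pericyte markers were lower and 1 higher. Tek, an endothelial receptor, fell by 1.53 ± 0.28 and Emcn, the gene of endomucin, rose by 0.85 ± 0.30, a call lost in 10 alternatives. On day 7, 1 endothelial marker was higher (2 without array 31), Cdh5 at 1.15 ± 0.22, and 2 smooth muscle and pericyte markers were higher and 1 lower.

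Neutrophil markers were higher in 7 of 7 on day 1 and on day 3 (6 on day 3 without array 31) and, by limma, in 0 on day 7 (1 without array 31), with 0 at an unadjusted p under 0.05. Macrophage markers were higher in 4, 7 and 6 of 7 on the 3 days. Of 5 tested atrial muscle markers 3 were lower on day 1 and 3 on day 3 (1 without array 31). The mean signal of the 6 measured, with the untested Bmp10 included, was 12.63 to 12.83 in sham and 9.43 to 11.54 on day 1. It was 9.18 to 11.86 on day 3 and 11.67 to 12.78 on day 7. Sln and Dkk3 fell by 5.09 ± 1.29 and 3.13 ± 0.45 on day 1. On day 7 limma called 0 in either direction, with 0 at an unadjusted p under 0.05, and 1 lower without array 31. Of 5 ventricular muscle markers 4, 4 and 2 were lower on the 3 days.

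Tissues that an atrial dissection could carry were looked at by the same means. Of 6 mesothelial markers 2 were lower on day 1, and limma called 0 on day 3 and 0 on day 7, with 1 lower and 0 changed at an unadjusted p under 0.05. Of the 7 markers of cartilage or valve, Sox9 and Comp were tested, and both were higher on day 7, while Acan, Chad, Matn1, Matn3 and Cnmd were not above background on any array. Of 3 tested Schwann cell markers 1 was lower on each day, and the mean signal of the 4 measured was 4.28 to 4.99 over all arrays. Of 5 tested skeletal muscle markers 2 were lower on day 1, 4 lower and 1 higher on day 3 and 1 higher on day 7. Without array 31 the day 1 counts were 4 lower and 1 higher, and the day 7 call, Tnnt3, was lost in 17 alternatives.

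**Figure D5:**
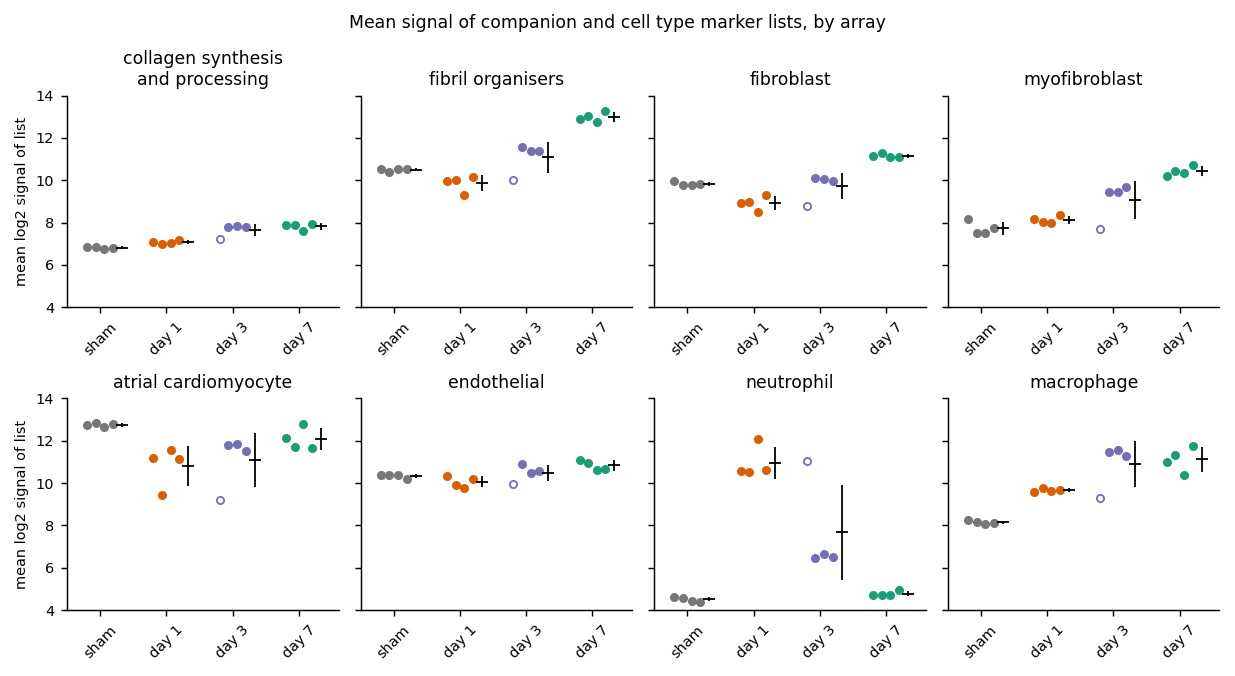
Mean log2 signal (vertical axis) of the measured genes of 8 lists, by group, with a point for each array and a cross for the mean ± SD of 4 arrays. The open point is array 31, which lies at 11.03 for neutrophil markers where arrays 32 to 34 lie at 6.46 to 6.66. Fibroblast markers lie lowest on day 1 and highest on day 7.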

How the data were processed

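RNA of 16 atrial samples was hybridised to single-colour arrays. The labels name a 3' array of the mouse genome, but the row names are transcript clusters that such an array does not carry, so the array design is uncertain. The authors deposited log2 signals for 72688 rows. Affymetrix Expression Console is the tool in the submitters' processing notes. How background, summarisation and scaling were handled is not stated in those notes or the labels, so differences stay on the log2 scale. Column maxima are 19.80 to 19.93, and no collagen gene reached them. No 2 columns were identical.

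Rows were joined to symbols through GEO's platform annotation, and 813 symbols were updated from RefSeq (GRCm38.p6). Of 30604 rows with 1 symbol the row with the highest mean was kept for each of 30141 genes. Genes above the array's median over all rows on at least 4 of 16 arrays were tested, 18419 in all. All 4 groups were fitted together with limma 3.58.1 (lmFit, eBayes with trend) in R 4.3.3, with Benjamini-Hochberg adjustment inside each of 6 comparisons. Background is the median of 5222 negative control rows on an array. The number of arrays limits the precision.

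Array values are given for members called against sham on at least 1 day, and of each list of related genes the 2 called genes with the largest difference per day are named. Promoter sequences are from RefSeq. The members, classes and lists were chosen with earlier results of these data known. Alternatives were quantile normalisation, 2 centrings, 2 filters, averaged rows, eBayes without trend, array weights, 2 groups only, and leaving out each array. Centring on negative controls was added after seeing the data. On simulated data of 18419 genes (day 7 versus sham) the fit recovered 77% of changes of 1 and 93% of changes of 2 log2 units, with 13 false among 183 calls.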

Additional observations from a re-analysis of the deposited data

Results flagged for a closer look

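In 9 collagen genes array 31 lay far below the other 3 day 3 arrays, more than Dixon's criterion for 4 values allows. It read 8.73 for Col1a1 (others 11.55 to 11.72), 9.23 for Col1a2 (12.09 to 12.26), 11.33 for Col3a1 (13.42 to 13.74) and 5.22 for Col5a1 (5.85 to 5.96). It read 7.28 for Col5a2 (8.76 to 8.81), 6.40 for Col12a1 (7.73 to 7.99), 6.49 for Col14a1 (8.45 to 8.62), 6.35 for Col15a1 (7.49 to 7.62) and 6.79 for Col8a1 (8.86 to 8.98). For 9 of the 14 genes with a day 7 difference of at least 1 array 31 still lay above the day 1 range, for 4 within it and for Col4a2 below it. In sham, array 4 read 7.16 for Col4a2 where the others read 7.47 to 7.50. These are 10 of 88 groups of 4 values, and 9 of the 10 are the same array. The genes share their arrays, so the groups are not independent. The 1 in 20 that holds for a single group is no yardstick for the count.

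Col14a1 was below sham on all 4 day 1 arrays (−1.37) and above it on all 4 day 7 arrays (4.01). The difference between those days was 5.38 and was tested (limma adjusted p 7.51e-07).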

How the results depend on the processing

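For the 22 called members, 66 differences from sham were recomputed under up to 26 alternatives, 1710 values in all. Of these, 1572 stayed on their side of the threshold, 91 lost the call, 43 gained one and 4 turned from a called difference. Among the 1572, 28 values of 8 uncalled differences, each at most 0.21 in size, changed sign without a call. The 27 differences of at least 1 log2 unit kept both in every alternative run. The 4 called values that turned were the day 3 difference of Col16a1, at −0.000899 under quantile normalisation, −0.015 centred on the tested genes and −0.055 centred on the negative controls, and that of Col5a3, at −0.0076 under the last. Of day 1, 3 members higher became 7 with array weights and 7 from 2 groups only, 6 without arrays 13 and 31, and 3 to 6 leaving out 1 array; 4 lower became 8 under quantile normalisation, 7 centred on tested genes, 7 with array weights, 7 from 2 groups only and 12 centred on negative controls. Of day 3, 3 lower became 5 centred on tested genes. Of day 7, 0 lower became 1 centred on tested genes, 1 with array weights, 1 without arrays 13 and 31, and 0 to 1 leaving out 1 array. From 2 groups only, 3 members rose from day 1 to day 3 and 3 from day 3 to day 7, and leaving out 1 array gave 9 to 15 and 6 to 14. The partner tests gave 0 to 17 calls, with 0 whenever 1 sham array was left out. Calls at the same smallest p pass or fail the adjustment together. The calls as a set therefore depend on all 4 sham arrays, which was not shown for each pair by itself. Scaling moved the split of all calls. The share called higher on day 1 was 52.9% as deposited, 30.3% quantile-normalised, 38.5% centred on tested genes and 27.1% on negative controls. For day 3 it was 53.8%, 36.1%, 36.9% and 37.4%, and for day 7 60.0%, 60.8%, 37.9% and 67.8%. The median day 1 difference of all genes went from 0.06 to −0.15 and −0.19 under the first and last. No paired analysis was possible because the groups share no replicate numbers. Signals near background limit Col5a3, Col16a1, Col18a1, Col6a6 and the type IV chains 3 to 5. In sham, Col5a1 and Col12a1 were near background as well.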

Other observations

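The rows of 2 more collagen genes carry a second symbol and so lie outside the family as chosen. The row of Col7a1, the anchoring fibril collagen of skin, is shared with Mir711 and read 4.44 ± 0.07 in sham, 4.45 ± 0.06 on day 1, 4.44 ± 0.05 on day 3 and 4.42 ± 0.06 on day 7 (SD, n = 4). The row of Col6a4, shared with Dvwa, read 4.11 ± 0.06, 4.09 ± 0.09, 4.06 ± 0.15 and 3.95 ± 0.08. Col6a4 was not above background on any array, and Col7a1 was on 1 sham array and 1 day 7 array.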
